A study of Mus musculus with 12 samples.

Results

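Both arms of miR-31 and miR-489 (mmu-miR-31-5p, mmu-miR-31-3p, mmu-miR-489-3p and mmu-miR-489-5p) were followed in wild-type quadriceps muscle of C57BL/6J mice aged 1 day (P1), 5 days (P5), 14 days (P14) or 90 days (P90). These 4 mature miRNAs were selected by name, because both hairpins are known from quiescent muscle stem cells, and they are 4 of the 1966 mature miRNAs in the count table. Each age was represented by 3 libraries made from total RNA of whole muscle, 12 libraries in all, and every sample is given as WT in its title. The mice were sacrificed at these ages with no treatment stated. The time course belongs to a study of MBNL splicing factors, which used it to learn which miRNAs altered in knockout mice are regulated during normal muscle growth. The quadriceps is a mixture of fibres and other cells, so fewer cells of a type and less of a miRNA per cell cannot be told apart in these libraries.

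Satellite cells are the stem cells of skeletal muscle, which divide and fuse with fibres during postnatal growth and come to rest in the adult. MiR-489 is known as a miRNA that keeps satellite cells quiescent, and its host gene Calcr, the calcitonin receptor, is a marker of resting satellite cells. MiR-31 is known to hold back translation of Myf5 mRNA in quiescent satellite cells, and it is also found in skin, immune and vascular cells. A mature miRNA finds its targets mainly through the seed, bases 2 to 8 from its 5′ end, and usually only the guide arm of a hairpin is kept at a high level.

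The mature sequences are shown because the arms differ in abundance and the seed groups them with other miRNAs. They were taken from RefSeq on the GRCm38.p6 build and are written 5′ to 3′ with the seed in capitals, and the last of them is the one other miRNA found with the seed of a member among the miRNAs of the table that had a RefSeq sequence.
miR-31-5p: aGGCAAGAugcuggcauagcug
miR-31-3p: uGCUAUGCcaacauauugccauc
miR-489-3p: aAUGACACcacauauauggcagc
miR-489-5p: uGUCAUAUgugugaugacacuuucu
miR-425-5p: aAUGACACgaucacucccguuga

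The miR-31 hairpin of 106 bases lies on the minus strand at chr4:88910557-88910662, with the 5p arm at 88910614 to 88910635 and the 3p arm at 88910577 to 88910599. It falls within the lncRNA gene Gm49890 and overlaps an exon on the same strand. The miR-489 hairpin of 107 bases lies on the minus strand at chr6:3721897-3722003, in an intron of Calcr and on its strand, with the 3p arm at 3721922 to 3721944 and the 5p arm at 3721957 to 3721981. The miR-653 hairpin (3721301 to 3721385) lies in the same intron, 511 bp away. No other miRNA hairpin was annotated within 50 kb of miR-31, and no hairpin overlapped either of the members' hairpins on any strand. A RefSeq sequence was found for 1675 miRNAs of the table. None of these had the seed of miR-31-5p, miR-31-3p or miR-489-5p, and only miR-425-5p had that of miR-489-3p.

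Library totals ranged from 20363495 to 53126984 counts. TMM factors rescale each library on the assumption that most miRNAs keep their level. They were 0.247 to 0.384 at P90 and 1.235 to 1.725 at the younger ages. Muscle fibre miRNAs (a list of 7) summed to 559098 to 586318 CPM of the library total at P90, against 246524 to 342954 at the younger ages. Most of this sum was miR-1a-3p, which had the highest count in every library. Levels are therefore given in normalized CPM (reads scaled to the TMM-adjusted library size) and, where it matters, in CPM of the library total. In total 809 miRNAs passed the filter on low counts and were tested with edgeR, with a Benjamini-Hochberg adjusted P value (Padj) under 0.05 as a call. Of the members, miR-31-5p and miR-489-3p passed, whereas miR-31-3p and miR-489-5p did not.

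MiR-31-5p, the guide arm of its hairpin, was a miRNA of moderate level at every age. It had 896, 1769 and 969 reads in the P1 libraries, 775, 857 and 825 at P5, 830, 944 and 943 at P14 and 247, 322 and 191 at P90. The normalized levels were 23.7, 40.8 and 23.1 CPM at P1 and 19.8, 20.5 and 18.6 at P5, then 22.9, 23.3 and 33.0 at P14 and 14.7, 17.07 and 15.9 at P90. All P90 libraries lay below all younger ones, P1 replicate 2 and P14 replicate 3 stood above the rest of their groups, and the P5 libraries were the closest together. The mean was 29.2 ± 10.06 CPM at P1 and 19.7 ± 0.962 at P5, then 26.4 ± 5.72 at P14 and 15.9 ± 1.19 at P90 (SD, n = 3 at each age). The means ran in the order P1, P14, P5 and P90. None of the pairs that neighbour each other in this order was called in the fit, although the libraries of P14 and P5, and those of P5 and P90, did not overlap.

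**Figure D1:**
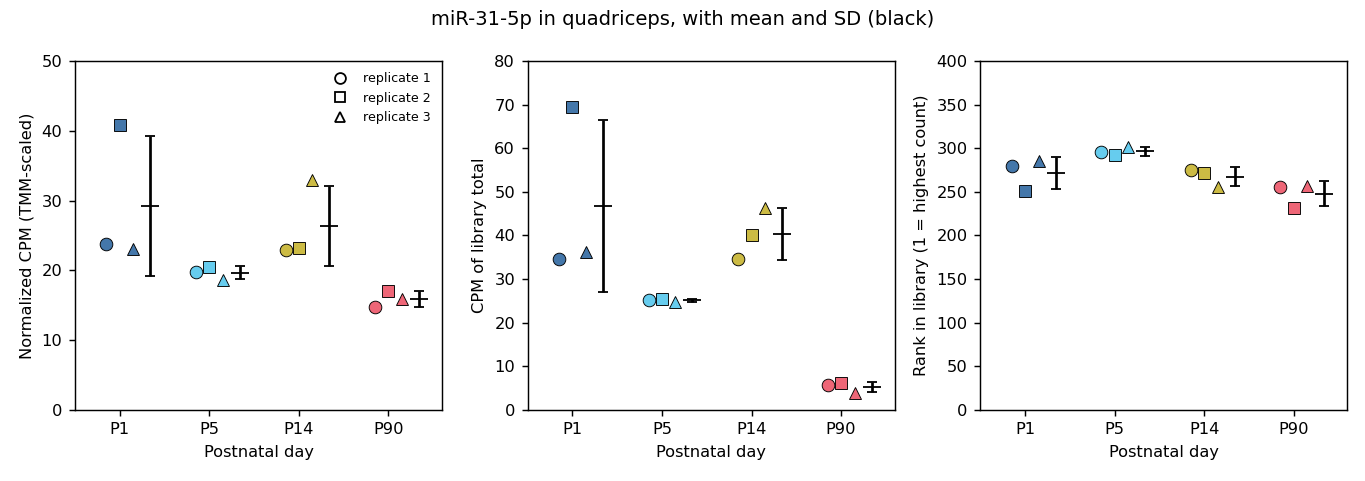
MiR-31-5p in each library by postnatal age, as normalized CPM (left), as CPM of the library total (middle) and as rank by count within the library, where 1 is the highest count (right), with the mean and SD of 3 libraries in black. The P90 libraries are lowest on both CPM scales, more so per library total (5.21 at P90 against 46.8 at P1), while the rank stays between 231 and 302 at all ages.

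A difference across the 4 ages was found for miR-31-5p (edgeR Padj = 0.00942), as for 72.4% of all miRNAs tested. From P1 to P90 its log2 fold change (log2FC) was -0.88 (SE 0.23, edgeR Padj = 0.00288), where 66.4% of all miRNAs were called. From P14 to P90 it was -0.73 (SE 0.23, edgeR Padj = 0.0119), where 59.1% were called. The median log2FC of all miRNAs tested was -0.72 for P90 versus P1 and -0.55 for P90 versus P14, so that miR-31-5p lay 0.16 and 0.18 below the median miRNA. The P90 versus P14 call was lost without P5 replicate 2 (log2FC -0.49) and without P14 replicate 3 (log2FC -0.50), and the call across the 4 ages was lost without P5 replicate 2. Both of these calls were also lost with RLE size factors, in DESeq2 and after removal of the GC trend (log2FC for P90 versus P14 -0.36, -0.36 and -0.11). The P90 versus P1 call was kept without any one of the 12 libraries (log2FC -1.04 to -0.59).

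The other steps gave no call for miR-31-5p. Its log2FC was -0.57 for P5 versus P1 (SE 0.22, edgeR Padj = 0.193), a step with 4.45% of all miRNAs called. It was 0.42 for P14 versus P5 (SE 0.22, edgeR Padj = 0.146), where 44.4% were called. For P14 versus P1 it was -0.15 (SE 0.22, edgeR Padj = 0.619), with 49.1% called, and the sign turned to 0.11 without P1 replicate 2. For P90 versus P5 it was -0.31 (SE 0.23, edgeR Padj = 0.250), with 63.2% called.

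The direction of the miR-31-5p difference between P90 and P1 depended on how the libraries were scaled. Per library total the log2FC was -3.16 and with RLE size factors -0.53, whereas upper-quartile factors turned it to 1.01, and all 3 passed the threshold. With the trend over GC content removed it was -0.51 and did not pass (edgeR Padj = 0.0602). The median of all miRNAs moved along with it, so that the distance of miR-31-5p from the median ranged from -0.20 to 0.08 over these scalings. For P90 versus P14, upper-quartile factors likewise turned the log2FC to 0.85, a call in the opposite direction. The P14 versus P5 difference passed with upper-quartile factors (0.69) and per library total (0.68). Within the libraries, miR-31-5p ranked 251 to 285 by count at P1 and 292 to 302 at P5, then 255 to 275 at P14 and 231 to 257 at P90.

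**Figure D2:**
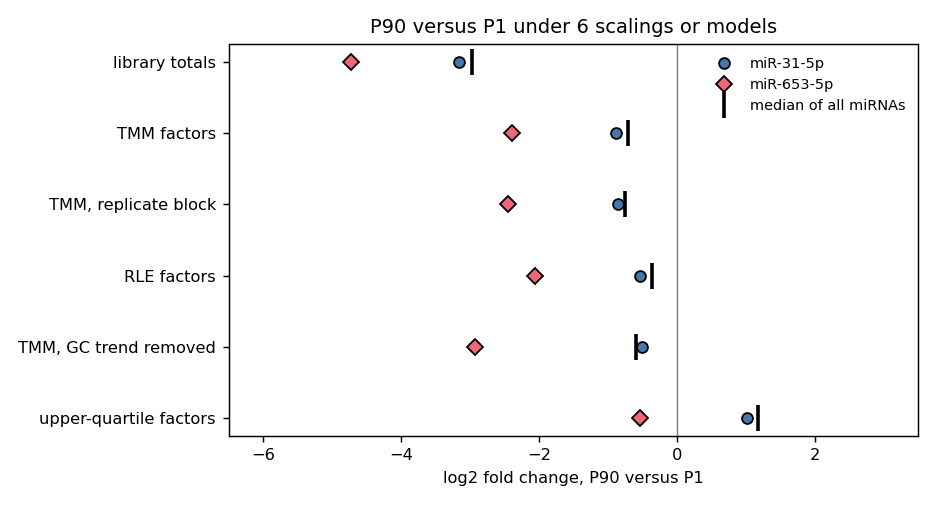
Log2 fold change of P90 versus P1 under 6 scalings or models, for miR-31-5p (circles), miR-653-5p (diamonds) and the median of all miRNAs tested (bars), with 0 marked in grey. MiR-31-5p stays within 0.20 of the median and changes sign with upper-quartile factors (1.01), while miR-653-5p lies below the median in each.

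MiR-31-3p, the passenger arm, was at the edge of detection. It had 8, 11 and 4 reads in the P1 libraries, 2, 5 and 0 at P5, 1, 0 and 2 at P14 and none in any P90 library. Reads were thus seen in all P1 libraries, and the counts of P5 and P14 overlapped. The arm held 23 of 3657 reads of the hairpin at P1, a share of 0.629% (95% exact interval 0.399 to 0.942). The share was 0.284% at P5 (0.114 to 0.584) and 0.110% at P14 (0.0228 to 0.322), and at P90 it was 0 of 760 reads, which allows a share of up to 0.395% by a limit of 3 counts and 0.484% by the exact interval. These intervals cover counting error only. The log2 ratio of the arms gave p = 0.162 across the ages (exact permutation test over 15400 partitions, 2-sided, adjusted for 2 ratios 0.264). In the 5 libraries with no read of the 3p arm, all P90 libraries included, this ratio was set by the 5p count and the 0.5 added to each count, so the test does not show whether the arm ratio changed. Without P5 replicate 3, one of these libraries, the exact test gave p = 0.0208. With no filter on low counts, miR-31-3p gave no call in any comparison (edgeR Padj = 0.103 for P90 versus P1, with an unadjusted p of 0.0397).

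MiR-489-3p, the arm that carries the seed AUGACAC, was present at 0 to 40 reads per library. Its counts were 7, 19 and 30 at P1 and 26, 40 and 32 at P5, then 34, 0 and 5 at P14 and 0, 1 and 5 at P90. The P5 libraries were the most uniform, the P14 libraries ran from none to the level of P5, and no P90 library reached the lowest P1 library. Summed over the 3 libraries of an age, this gave 56 reads at P1 (95% Poisson interval 42.3 to 72.7), 98 at P5 (79.6 to 119), 39 at P14 (27.7 to 53.3) and 6 at P90 (2.20 to 13.06). These intervals cover the counting error of the pooled reads only. They leave out the spread between libraries and do not compare the ages. On the normalized scale the means were 0.446 ± 0.265 CPM at P1 and 0.782 ± 0.156 at P5, then 0.370 ± 0.498 at P14 and 0.157 ± 0.227 at P90 (SD, n = 3 at each age). In the order P5, P1, P14 and P90, the libraries of each neighbouring pair overlapped on this scale, and none of these pairs was called. P90 replicate 3, with 0.416 CPM, lay above P1 replicate 1, with 0.185 CPM.

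No comparison called miR-489-3p. The log2FC was -1.68 for P90 versus P1 (SE 1.28, edgeR Padj = 0.263) and -2.48 for P90 versus P5 (SE 1.27, edgeR Padj = 0.102), and across the 4 ages the edgeR Padj was 0.342. Between the younger ages it was 0.80 for P5 versus P1 (SE 1.03) and -1.07 for P14 versus P5 (SE 1.05). The standard errors were more than 4 times those of miR-31-5p. The P90 versus P5 value passed with no filter on low counts (edgeR Padj = 0.0308), with the libraries of these 2 ages only (edgeR Padj = 0.0189), without P14 replicate 2 (edgeR Padj = 0.0421) and without P90 replicate 3 (edgeR Padj = 0.0349). In this comparison, these settings called 515 of 1542, 500 of 694, 524 of 871 and 491 of 862 miRNAs. The P90 versus P14 value of -1.41 turned to 0.77 without P14 replicate 1. Per library total, the log2FC of miR-489-3p for P90 versus P1 (-4.00), P90 versus P5 (-4.48) and P90 versus P14 (-3.65) all passed. On that scale 683, 640 and 646 of all 809 miRNAs were called in these comparisons, most of them lower. The medians of all miRNAs were -2.97, -2.55 and -2.77.

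**Figure D3:**
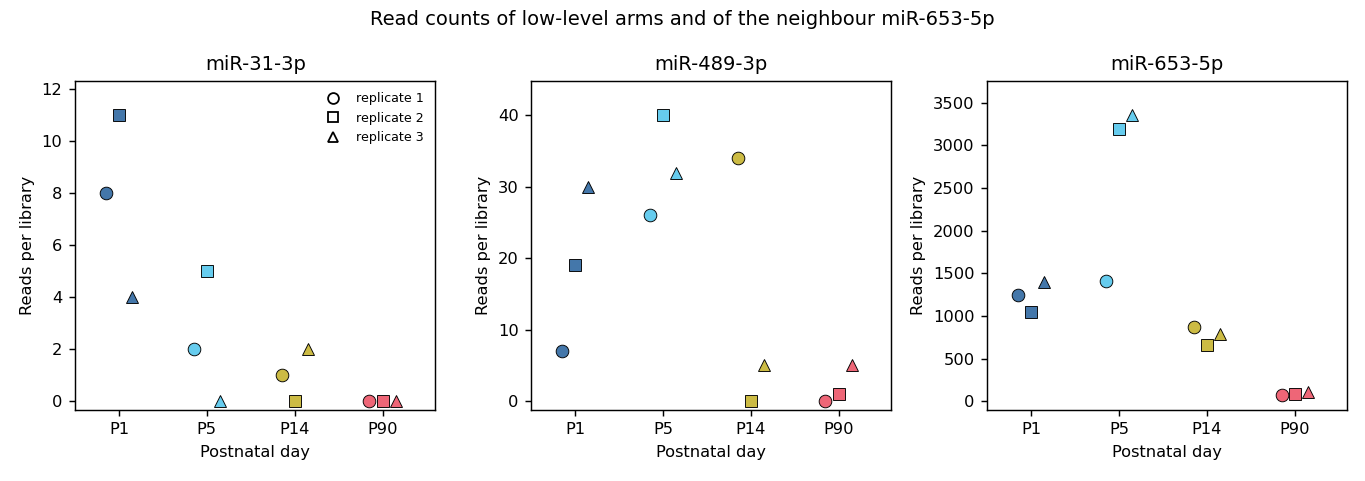
Reads per library of miR-31-3p, miR-489-3p and miR-653-5p by postnatal age, with a marker for each replicate and a separate linear axis for each miRNA. MiR-489-3p reaches 40 reads at P5 and at most 5 at P90, its P14 libraries spread from 0 to 34, and miR-653-5p from the same intron has 72 to 103 reads at P90.

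MiR-489-5p had no read in any of the 12 libraries. Against the 199 reads of the 3p arm, this allows a share of up to 1.51% for the 5p arm. The arm ratio of miR-489 was therefore not tested. Between the hairpins, 48.1 reads of miR-31-5p were counted per read of miR-489-3p over all libraries. By age this was 64.9 at P1 and 25.1 at P5, then 69.7 at P14 and 127 at P90, where the value rests on 6 reads of miR-489-3p. In the log2 ratio, no difference across the ages beyond the spread between libraries was found (exact permutation test over 15400 partitions, 2-sided, p = 0.264, adjusted for 2 ratios 0.264).

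The neighbour of miR-489 in the Calcr intron was counted at a far higher level. MiR-653-5p had 1248, 1043 and 1401 reads at P1 and 1412, 3197 and 3352 at P5, then 874, 658 and 787 at P14 and 72, 85 and 103 at P90. Reads were thus most numerous at P5, and the P90 libraries lay far below all the others. For each read of miR-489-3p there were 65.9 reads of miR-653-5p at P1 and 81.2 at P5, then 59.5 at P14 and 43.3 at P90. These ratios pool the 3 libraries of an age and were not tested. At P90 miR-489-3p had 6 reads in all, 5 of them in replicate 3, and at P14 replicate 1 held 34 of 39. The counts are thus too few to show whether the ratio changed. The normalized level of miR-653-5p was 30.2 ± 5.28 CPM at P1 and 62.8 ± 23.1 at P5, then 22.6 ± 5.79 at P14 and 5.79 ± 2.42 at P90 (SD, n = 3 at each age).

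The log2FC of miR-653-5p was -2.40 for P90 versus P1 (SE 0.33, edgeR Padj = 1.03e-05) and -3.46 for P90 versus P5 (SE 0.35, edgeR Padj = 2.5e-07), and both calls were kept without any one of the 12 libraries. For P14 versus P5 it was -1.48 (SE 0.31, edgeR Padj = 0.00128), and for P5 versus P1 it was 1.06 (SE 0.31, edgeR Padj = 0.0674) and missed the threshold. With upper-quartile factors the P90 versus P5 value was -1.62 (edgeR Padj = 0.000147), but the P90 versus P1 value of -0.54 did not pass (edgeR Padj = 0.118). In reads of miR-653-5p per read of miR-31-5p, which needs no scaling, the P5 libraries stood at 1.82, 3.73 and 4.06, the P1 libraries at 1.39, 0.590 and 1.45, the P14 libraries at 1.05, 0.697 and 0.835 and the P90 libraries at 0.291, 0.264 and 0.539. The P5 libraries were above all others and the P90 libraries below all others in this ratio.

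MiR-425-5p, which shares the seed of miR-489-3p, was counted at 189 ± 15.5 normalized CPM at P1 and 193 ± 4.70 at P5, then 272 ± 32.2 at P14 and 256 ± 21.7 at P90 (SD, n = 3 at each age). It was thus far above miR-489-3p at each age. Its log2FC was 0.52 for P14 versus P1 (SE 0.14, edgeR Padj = 0.00461) and 0.44 for P90 versus P1 (SE 0.14, edgeR Padj = 0.00979). The latter lies 1.15 above the median of all miRNAs but turned to -1.81 per library total, and the TMM-scaled call was lost without P1 replicate 2 (edgeR Padj = 0.0512) and with no filter on low counts (edgeR Padj = 0.0597).

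Other miRNAs known from muscle stem cells and myogenic progression were examined next to the members. The list was chosen with earlier results of these data known, so its counts of calls are a description. All 15 miRNAs of this list were tested, and 14 differed across the 4 ages, against 72.4% of all miRNAs. For P90 versus P1, 13 of 15 were called, against 66.4% of all. Of these, 9 were higher at P90, a direction called for 25.2% of all miRNAs, and 4 were lower, a direction called for 41.2%. The median log2FC of the list was 1.15, against -0.72 over all miRNAs. Per library total, 3 were higher and 10 lower (median -1.13), and with upper-quartile factors 12 were higher and 3 lower (median 3.03). Over all 809 miRNAs, library totals called 36 higher and 647 lower (median -2.97). Upper-quartile factors called 391 of them higher and 192 lower (median 1.177).

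The 4 that were lower at P90 were miR-503-5p (log2FC -4.66, SE 0.17), miR-206-3p (-3.78, SE 0.16), which is known from differentiating myoblasts and regenerating fibres, miR-501-3p (-3.26, SE 0.17) and miR-322-5p (-0.72, SE 0.19), which is made with miR-503. The first 3 were lower at P90 per library total and with upper-quartile factors as well, whereas miR-322-5p turned to 1.16 with the latter. The 9 that were higher at P90 included the fibre miRNAs miR-133a-3p (3.48, SE 0.20), miR-1a-3p (3.44, SE 0.24) and miR-486a-5p (2.66, SE 0.19), and also miR-27a-3p (1.25), miR-221-3p (1.19), miR-222-3p (1.15) and miR-27b-3p (0.94). Per library total, miR-27a-3p, miR-221-3p, miR-222-3p and miR-27b-3p were called lower instead (-1.04, -1.09, -1.13 and -1.36). On that scale miR-133a-3p (1.21) and miR-1a-3p (1.13) stayed called higher, and miR-486a-5p had 0.42 without a call. The remaining pair, miR-195a-5p and miR-497a-5p, which are known to promote cell cycle exit of satellite cells, were already higher at P5 than at P1 (log2FC 1.42, SE 0.21, and 1.36, SE 0.21). In the TMM-scaled fit these were the only 2 of the 15 called at that step, where 4.45% of all miRNAs were called. RLE factors, DESeq2 and upper-quartile factors each called 3 of the 15 higher there, and no filter 4. The fit of 2 ages called 4 higher and 1 lower. Over all miRNAs, these settings called 46, 73, 40, 62 and 87. For P90 versus P1, miR-195a-5p and miR-497a-5p had 3.58 (SE 0.22) and 2.06 (SE 0.22), and per library total 1.29 and -0.23, the latter without a call. MiR-708-5p, also known from quiescent satellite cells, had 12.3 ± 0.651 normalized CPM at P1 and 14.09 ± 9.02 at P90, a log2FC of 0.20 (SE 0.35, edgeR Padj = 0.630). On this scale miR-31-5p (-0.88) and miR-489-3p (-1.68) lay between miR-322-5p and miR-501-3p.

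**Figure D4:**
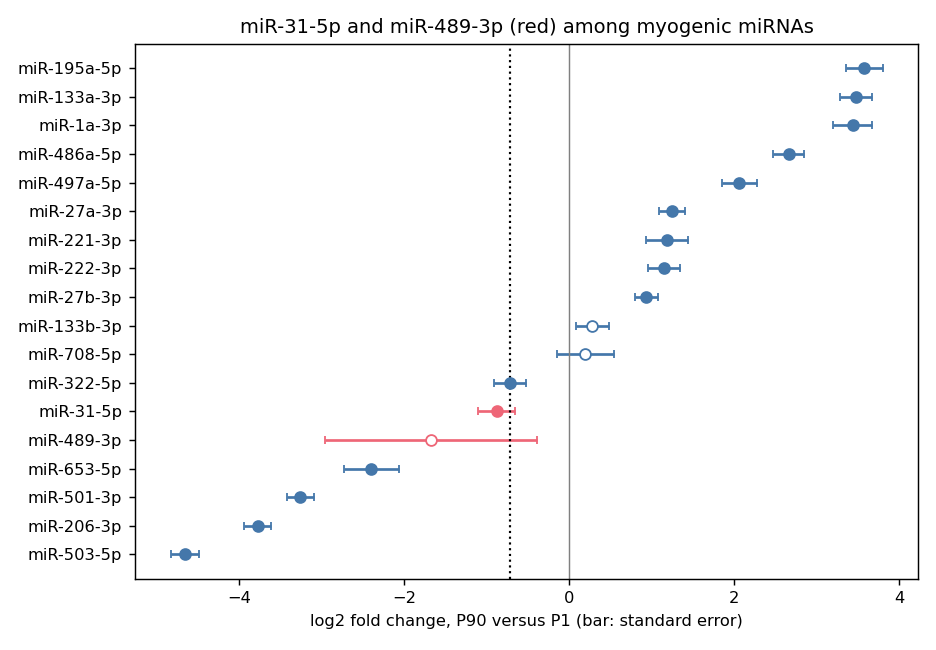
Log2 fold change of P90 versus P1 with its standard error (TMM-scaled edgeR fit, 3 libraries at each age) for miR-31-5p and miR-489-3p (red), for miR-653-5p and for the 15 myogenic miRNAs (blue). Filled points passed the threshold, the dotted line is the median of all miRNAs tested (-0.72), and miR-31-5p (-0.88) lies beside that line while miR-489-3p has the widest bar (SE 1.28). The sign of the miR-31-5p value turns with upper-quartile factors.

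The miRNAs whose course was most like that of miR-31-5p were listed by the Pearson r of log2 normalized CPM over the 12 libraries, among 349 miRNAs whose mean reached 10 CPM. These were miR-148a-5p (r = 0.797), miR-455-3p (0.796), miR-5099 (0.785), miR-27a-5p (0.759) and miR-92a-3p (0.741). The points share libraries and scaling factors, and the value is a description. MiR-455-3p had 372 ± 115 CPM at P1 and 311 ± 33.8 at P5, then 388 ± 85.8 at P14 and 131 ± 27.4 at P90 (SD, n = 3 at each age). The remaining members were too low to be compared in this way.

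Since miR-31 is also found in skin and other cells, marker miRNAs of other cell types were summed in each library. The marker lists, too, were chosen with earlier results of these data known. The 7 epithelium and skin markers summed to 207, 320 and 206 normalized CPM in P1 replicates 1 to 3, to 303 to 473 at P5, to 76.6 to 154 at P14 and to 153 to 420 at P90. At each of the 4 ages, the library highest in miR-31-5p was also the highest in these markers (P1 replicate 2, P5 replicate 2, P14 replicate 3 and P90 replicate 2). At P5 the miR-31-5p levels lay close together, with 20.5 CPM in replicate 2 and 19.8 in replicate 1. Between the ages, the order was not the same. The median sum of these markers was highest at P5 (307 CPM) and lowest at P14 (90.4), where miR-31-5p had means of 19.7 and 26.4 CPM. Most of this sum was miR-203-3p, with a mean of 163 CPM at P1 and 216 at P90, while miR-200b-3p had 22.5 and 8.96 and miR-205-5p 29.1 and 4.45. P1 replicate 2 also had the highest sums of its age for the blood and mesenchyme markers, P5 replicate 2 for the endothelium and fibre markers, P14 replicate 3 for the mesenchyme, nerve and fibre markers and P90 replicate 2 for the blood markers. For P90 versus P1 none of the 7 epithelium and skin markers was called higher and 3 were called lower, but with upper-quartile factors 4 were higher and none lower. Over all miRNAs in this comparison, 25.2% were called higher and 41.2% lower on the TMM scale. Upper-quartile factors called 391 of 809 higher and 192 lower, and library totals 36 higher and 647 lower. The marker calls below are to be read beside these shares. The 4 mesenchyme markers summed to 11418 to 17942 CPM at P1 and to 2263 to 3101 at P90, and all 4 were lower at P90, or 2 with upper-quartile factors. From P1 to P90, the range of the summed level of 6 blood and immune markers moved from 513–707 to 619–786 CPM, that of 4 endothelium and smooth muscle markers from 20517–24108 to 66721–86278 CPM, and that of 4 nerve markers from 1694–1852 to 1107–1342 CPM, all on the TMM scale. Per library total the blood sum was instead 749–1203 at P1 and 153–279 at P90, and the endothelium sum 32162–35927 and 21304–28738. All 4 endothelium markers were called higher at P90 on the TMM scale but lower per library total, and the 4 nerve markers were called lower per library total and higher with upper-quartile factors. On the TMM scale, 2 of the 6 blood markers were called higher at P90 and 2 lower. Of the 4 nerve markers, 1 was called higher and 1 lower. Most of the nerve sum was miR-128-3p (mean 1631 CPM at P1 and 1050 at P90), while miR-124-3p, miR-9-5p and miR-9-3p had higher means at P90. No marker of these lists was at 0 at any age, and the part of these cells in the miR-31-5p values was not tested. The 7 muscle fibre miRNAs summed to 154579 to 208206 normalized CPM at P1 and 1455485 to 2374483 at P90. TMM-scaled sums exceed the usual bound of CPM there. Most of this sum was miR-1a-3p (mean 160548 CPM at P1 and 1738270 at P90). Of the 7, 3 were called higher at P90 and 3 lower on the TMM scale, the latter including miR-206-3p (17648 and 1288 CPM).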

How the data were processed

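The authors made the small RNA libraries with a commercial kit, selected reads of 10 to 35 nt with cutadapt 1.18, aligned them to GRCm38 with Bowtie2 2.4.1 and counted them with featureCounts 2.0.1 on the miRBase annotation. The deposited values are raw counts per mature miRNA, with no normalization. How the counting treated strand and reads with several matches is not given in the sources used here.

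The sample titles gave the age and the replicate number of each library. MiRNAs were kept with filterByExpr (minimum count 10), scaled with TMM factors and tested with edgeR 4.0.16 (quasi-likelihood F-tests, 2-sided, 1 model with a mean for each age over all 12 libraries). Padj was taken over all 809 miRNAs tested, and SE was derived from the F statistic. Ratios were compared with exact permutation tests after adding 0.5 to each count. A count of 3 is the limit that a count of 0 allows, and intervals (95%, Clopper-Pearson or Poisson) and limits cover counting error only. The members and lists were chosen with earlier results of these data known. Besides the members, the miRNAs named are a list of 15 myogenic miRNAs, the miRNA hairpin within 50 kb of a member, the miRNA with a shared seed and the 5 miRNAs most like miR-31-5p. On simulated counts for 809 miRNAs, the scripts recovered most of the changed miRNAs without a wrong direction. The direction of the differences at P90, which for miR-31-5p turned with the scaling, was not tested in this way. Alternatives were RLE and upper-quartile factors, library totals, no filter, DESeq2 1.42.0, a replicate block, the 2 ages compared only, removal of the trend over GC content, and leaving out each library. All replicates of an age differed by more than sampling noise and were counted as separate samples.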

Additional observations from a re-analysis of the deposited data

How the results depend on the processing

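With RLE factors, DESeq2 or the GC trend removed, 0 members were called for P90 versus P14 and across the 4 ages, and with the GC trend removed 0 for P90 versus P1. Over all miRNAs, these settings called 481 of 809, 496 of 1033 and 444 of 809 for P90 versus P14. Across the ages they called 595 of 809, 616 of 1062 and 573 of 809. With the GC trend removed, 547 of 809 were called for P90 versus P1. Library totals alone called 2 members for P90 versus P14, P90 versus P5, P90 versus P1 and across the ages, and 1 for P14 versus P5. Of all 809 miRNAs, this scaling called 646, 640, 683, 701 and 343 in these comparisons. Upper-quartile factors called 1 member for P14 versus P5 and for P90 versus P5, where they called 372 and 590 of all 809 miRNAs. With only the 2 ages compared, 1 was called for P14 versus P5 and P90 versus P5 and 0 for P90 versus P14, and with no filter 1 for P90 versus P5. Over all miRNAs, the fits of 2 ages called 356 of 726, 500 of 694 and 443 of 659 in these comparisons. The fit with no filter called 515 of 1542. Leaving out 1 library gave 0 to 1 for P90 versus P14, P90 versus P5 and across the ages. Over all miRNAs, these fits called 444 to 483, 486 to 524 and 571 to 602 of the 856 to 889 tested. The miR-31 arm ratio had an exact permutation p of 0.0208 to 0.350 with 1 library left out. In this ratio, libraries with no 3p read are set by the 0.5 added. Upper-quartile factors turned the log2FC of miR-31-5p to 0.85 (P90 versus P14), 0.16 (P14 versus P1), 1.54 (P90 versus P5) and 1.01 (P90 versus P1), and that of miR-489-3p to 0.094, 0.069 and 0.16 (P90 versus P14, P14 versus P1, P90 versus P1). With the GC trend removed, miR-31-5p had 0.041 for P90 versus P5. Leaving out 1 library gave miR-31-5p -0.39 to 0.11 for P14 versus P1, and gave miR-489-3p -3.52 to 0.77 for P90 versus P14 and -2.48 to 0.28 for P14 versus P1. The cause was not tested.

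Over the 18 pairs of same-numbered libraries, deviations from the age means correlated with r from -0.0967 to 0.124, so the numbers do not pair the samples. With the replicate block no member gained or lost a call, miR-31-5p had -0.86 for P90 versus P1, and P5 versus P1 had 15 calls over all miRNAs in place of 36. That count was 11 without P5 replicate 2, 8 without P5 replicate 3, 10 and 24 without P1 replicates 2 and 1, 62 with no filter, 73 with DESeq2 and 87 with only the 2 ages. The low counts of miR-489-3p and miR-31-3p limit what can be said of them.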
